A study of Mus musculus with 6 samples.

Results

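The genes described here are those of the CCR2 axis, which draws monocytes out of bone marrow and blood into tissue. They are the 4 mouse genes Ccl2, Ccl7, Ccl8 and Ccl12 listed as CCR2 ligands, the receptor gene Ccr2, and the growth factor genes Csf1 and Csf2. They were picked by name, with earlier results of these data known, and all 7 had a row among the 35275 gene rows of the count tables. The lungs compared were those of Balb/c mice that received 250000 4T1 cells, from a murine breast cancer line able to colonise the lung, by tail vein. The cells were PD-L1 KO 4T1 (KO, 3 libraries) or unedited 4T1 (WT, 3 libraries), and lungs were taken on day 7 after perfusion with 20 mL of PBS. KO refers to the injected cells, as no label names an edit in the recipient mice, which keep their own PD-L1 gene. Whether the KO cells were 1 clone, and whether each library came from 1 mouse, is not given in the sources used here, and p-values cover only the spread between libraries, which may be technical.

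CCR2 is a G protein-coupled receptor carried mainly by classical monocytes. Its ligands are small secreted chemokines made by endothelium, fibroblasts, macrophages and many tumour cells when they are stimulated, among other signals, by inflammatory cytokines. CCL2 is the principal ligand, CCL7 acts with it in moving monocytes from bone marrow to blood, and CCL12 is a rodent chemokine closely related to CCL2. CSF1 (M-CSF) keeps monocytes and macrophages alive through the receptor CSF1R, and CSF2 (GM-CSF) sustains alveolar macrophages and activates myeloid cells. The study concerns PD-L1 of tumour cells and PD-1 of myeloid cells, and the comparison asks how these genes differed when the injected cells lacked PD-L1.

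The CC chemokines are named for adjacent cysteines near the start of the mature protein. To show what the ligand genes share, the coding stretch around that codon pair is given for each, 5′ to 3′ on the plus strand of chromosome 11, with the cysteine codons in capitals.

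Ccl2: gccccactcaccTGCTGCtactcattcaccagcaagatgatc

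Ccl7: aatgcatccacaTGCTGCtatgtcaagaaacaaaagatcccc

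Ccl8: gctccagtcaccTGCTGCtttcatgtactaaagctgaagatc

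Ccl12: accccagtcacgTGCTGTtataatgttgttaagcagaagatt

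The stretches come from the GENCODE M21 transcripts (GRCm38), and the codon pair lies in exon 2 of 3 in each of the 4 genes. It starts at position 82036506 in Ccl2, 82046538 in Ccl7, 82116056 in Ccl8 and 82102634 in Ccl12. Over whole coding sequences, with gaps counted, Ccl8 and Ccl12 were 65.2% identical, Ccl2 and Ccl7 46.3% and Ccl2 and Ccl12 47.9%. The coding sequence of Ccl2 has 444 bases, against 291 in Ccl7 and Ccl8 and 312 in Ccl12, so gaps lower the identity of pairs with Ccl2. The longest run of bases shared exactly by any pair of these transcripts was 23, between Ccl2 and Ccl7.

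Total counts ran from 14711459 to 16932114 per library, so 3 counts, the limit that a count of 0 allows, came to 0.176 to 0.206 CPM (the count as a share of the library's total, scaled with edgeR's TMM factors). The lung label held in every library, with the surfactant gene Sftpc at 7783 ± 1063 CPM in KO and 7846 ± 481.2 CPM in WT lungs (SD, n = 3 each). Cd274, which encodes PD-L1, had 1514, 3013 and 4929 counts in KO lungs and 910, 912 and 1132 counts in WT lungs, which goes against a simple loss of the gene's RNA. Host cells supply this gene, and an edited allele can still give reads, so Cd274 checks the labels only in part. KO replicate 1 stood apart from its group: its mean correlation over log2 values was 0.981 with the other KO libraries and 0.983 with the WT libraries. The values of the 7 genes are therefore also given without it. Since the whole organ was sequenced, fewer or more cells of a type cannot be told apart from less or more RNA per cell.

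All 7 genes passed the filter on low counts and had positive log2 fold changes (KO minus WT), as did 51.0% of all genes tested. Of the 7, 3 rose in KO lungs: Ccl2, Ccl7 and Ccr2 (edgeR quasi-likelihood test, adjusted p under 0.05 over all genes). Over all 15191 genes tested, 1.12% passed in this direction and 0.336% in the other. The median log2 fold change was 1.47 for the 7 genes and 0.01 for all genes tested. In 5 of the 7 genes every KO library lay above every WT library, as did 10.3% of all genes tested, and in none did every KO library lie below, as did 9.4%. Without KO replicate 1 the same 3 genes rose, against 2.58% of 15650 genes.

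Among the ligands, Ccl2 (ENSMUSG00000035385, chromosome 11, 82035571 to 82037453, plus strand) had the clearest difference. It was at 30.8, 31.6 and 44.4 CPM in KO replicates 1 to 3, against 12.7, 10.98 and 14.8 CPM in WT replicates 1 to 3. The groups were far apart, with the lowest KO library above the highest WT library by more than the spread within WT. The counts behind these values were 479, 483 and 728 in KO and 185, 187 and 226 in WT libraries. The log2 fold change was 1.47 ± 0.19 (SE; edgeR adjusted p = 0.00482), which ranked Ccl2 at place 8 of all genes by p. It passed under all 14 alternatives tried, at log2 fold changes of 1.28 to 1.59, and at 1.56 without KO replicate 1.

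Ccl7 (ENSMUSG00000035373, 82045712 to 82047525, plus strand), the neighbour of Ccl2, was lower in level and more variable. It was at 9.78, 17.5 and 19.7 CPM in KO lungs and at 6.60, 2.23 and 2.76 CPM in WT lungs. KO replicate 1 was the lowest of its group and WT replicate 1 the highest of its own, and these 2 libraries came close without overlapping. The log2 fold change was 2.03 ± 0.39 (edgeR adjusted p = 0.0224), and 2.27 without KO replicate 1 (adjusted p = 0.00245). The call was lost without KO replicate 2 or 3 and without WT replicate 2 or 3, at adjusted p of 0.133, 0.110, 0.116 and 0.0593.

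Ccl8 and Ccl12 were low, and neither passed. Ccl8 (ENSMUSG00000009185, 82115185 to 82116799), which in mice also acts on CCR8, had 20, 85 and 63 counts in KO and 1, 0 and 15 counts in WT libraries. This is 3.57 ± 2.15 CPM in KO and 0.351 ± 0.550 CPM in WT lungs (SD, n = 3 each), with no overlap between groups. The log2 difference was 3.33 ± 0.98 (edgeR adjusted p = 0.119). Without WT replicate 3, which held 15 of the 16 WT counts, the gene passed (adjusted p = 0.0176), but its fold change then rested on 1 WT count. Without KO replicate 1 the log2 difference was 3.73 (adjusted p = 0.0507).

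Ccl12 (ENSMUSG00000035352, 82101845 to 82103400) had 16, 38 and 112 counts in KO and 11, 0 and 18 counts in WT libraries. KO replicate 1 lay below WT replicate 3, so the groups overlapped. The levels were 3.45 ± 3.02 CPM in KO and 0.646 ± 0.598 CPM in WT lungs, with a log2 difference of 2.42 ± 0.93 (edgeR adjusted p = 0.239). That difference was 1.45 without KO replicate 3 and 2.85 without KO replicate 1 (adjusted p = 0.103). WT replicate 2 had 0 counts of both Ccl8 and Ccl12, and neither gene was detectable in it at this depth.

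**Figure D1:**
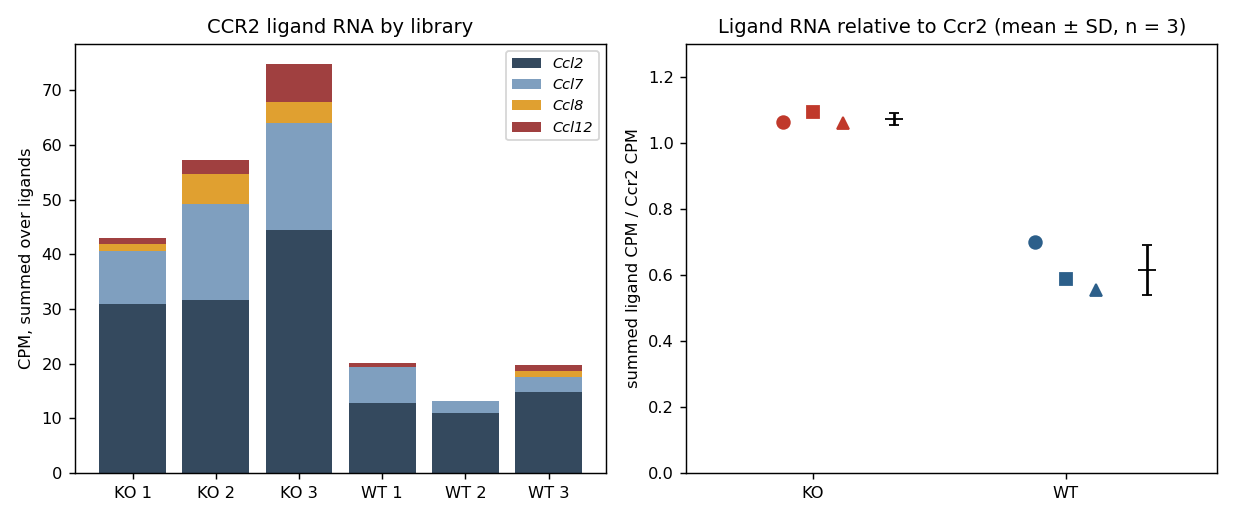
Left, CPM of the 4 ligand genes stacked for each library (y axis from 0). Right, summed ligand CPM divided by Ccr2 CPM, with the mean and SD of 3 libraries; KO libraries lie at 1.06 to 1.09 and WT libraries at 0.555 to 0.701.

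Taken as a sum, ligand RNA was at 42.9, 57.2 and 74.7 CPM in KO lungs and at 20.1, 13.2 and 19.8 CPM in WT lungs. Ccl2 made up 71.8%, 55.3% and 59.4% of this sum in KO lungs and 63.1%, 83.1% and 75.1% in WT lungs. The share of Ccl7 was 22.8%, 30.6% and 26.3% in KO lungs and 32.8%, 16.9% and 14.0% in WT lungs. The shares overlapped between groups for all 4 ligands. Per kilobase of exon, Ccl2 was the highest of the 4 ligands in each of the 6 libraries.

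The receptor gene Ccr2 (ENSMUSG00000049103, chromosome 9, 124101950 to 124113557, plus strand) also rose. It was at 40.4, 52.4 and 70.5 CPM in KO lungs and at 28.7, 22.5 and 35.6 CPM in WT lungs. The groups did not overlap, but KO replicate 1 lay close to WT replicate 3. The log2 fold change was 0.91 ± 0.20 (edgeR adjusted p = 0.0440), near the threshold. Without KO replicate 1 it was 1.09 (adjusted p = 0.00414). The call was lost without KO replicate 2 or 3 and without WT replicate 1 or 2, at adjusted p of 0.170, 0.190, 0.177 and 0.179.

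The summed ligand CPM was 1.06, 1.09 and 1.06 times the Ccr2 CPM in KO lungs, against 0.701, 0.587 and 0.555 times in WT lungs. The 3 KO values lay close together and above all WT values. On the log2 scale the ratio averaged 0.10 ± 0.02 in KO and −0.71 ± 0.18 in WT lungs (SD, n = 3 each), a difference of 0.81. Leaving out 1 library at a time gave differences of 0.74 to 0.91. No p is given, because the genes in the sum were chosen with results of these data known. For this or any other ratio given here, an exact permutation test of 3 against 3 libraries could not give a p under 0.1. A ratio of CPM within a library does not depend on library scaling, and it compares differences rather than molecule numbers of the genes.

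Neither growth factor gene passed. Csf1 (ENSMUSG00000014599, chromosome 3, 107741048 to 107760469, minus strand) was at 85.9, 84.0 and 113.2 CPM in KO lungs and at 62.4, 59.5 and 77.3 CPM in WT lungs. The 3 KO libraries were the 3 highest, by little. Csf1 was not called, with a log2 difference of 0.51 ± 0.14 (edgeR adjusted p = 0.1005), nor was it without KO replicate 1 (0.57, adjusted p = 0.0547). DESeq2 called it (adjusted p = 0.0459), and over the 14 alternatives its adjusted p ranged from 0.00826 to 0.378.

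Csf2 (ENSMUSG00000018916, chromosome 11, 54247271 to 54249667, minus strand) was near the limit of the depth. It had 21, 15 and 28 counts in KO and 15, 17 and 12 counts in WT libraries. The groups overlapped, at 1.35 ± 0.362 CPM in KO and 0.939 ± 0.132 CPM in WT lungs. The log2 difference was 0.52 ± 0.68 (edgeR adjusted p = 0.785), an error wide enough that neither a rise nor a fall of this size was detectable. Without KO replicate 1 it was 0.51 (adjusted p = 0.846).

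**Figure D2:**
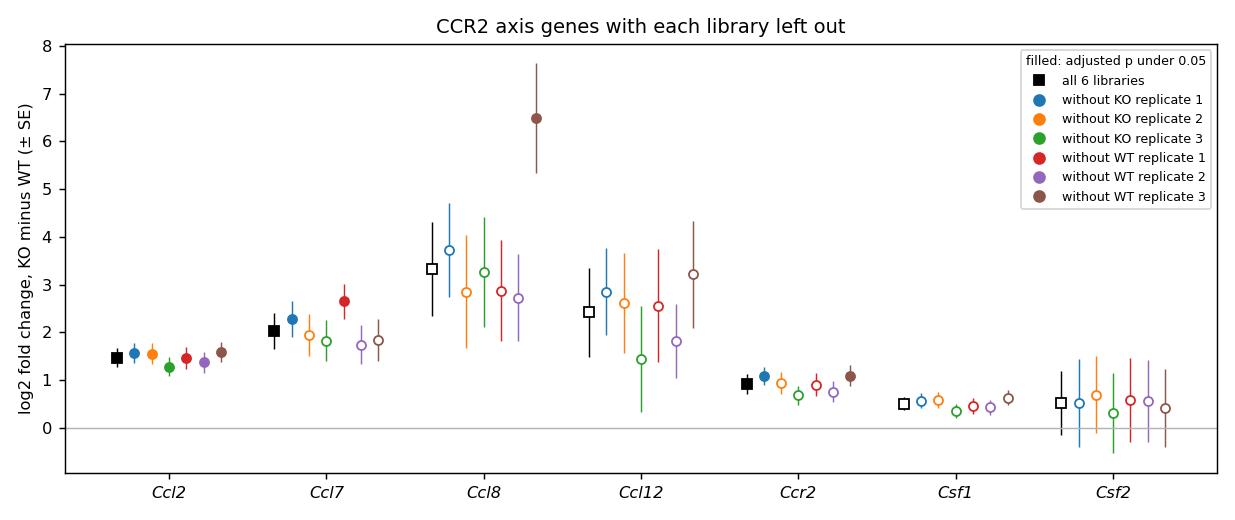
Log2 fold change (KO minus WT) with its SE for each of the 7 genes, with all 6 libraries and with each library left out; filled symbols have an adjusted p under 0.05. Ccl2 was filled throughout, Ccl7 and Ccr2 in part, Ccl8 only without WT replicate 3, and Csf1, Csf2 and Ccl12 in none.

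Levels can be set beside each other only per length, here as CPM per kilobase of annotated exon. In KO lungs Ccl2 stood first at 31.3 ± 6.68, followed by Ccl7 at 19.5 ± 6.50 and Csf1 at 17.9 ± 3.10 (SD, n = 3). Ccr2 followed at 8.05 ± 2.24, Ccl8 at 6.98 ± 4.22, Ccl12 at 6.42 ± 5.62 and Csf2 at 1.68 ± 0.453. In WT lungs Csf1 stood first at 12.6 ± 1.80 and Ccl2 second at 11.3 ± 1.70, with overlapping ranges. The annotated exons of Ccl2 sum to 1138 bases and its coding transcript has 813, so its place depends on the length used. Ccl7 at 4.82 ± 2.98, Ccr2 at 4.28 ± 0.968, Ccl12 at 1.20 ± 1.11, Csf2 at 1.17 ± 0.165 and Ccl8 at 0.687 ± 1.08 came after them. In KO lungs the ranges of neighbours in this order were separate for Ccl2 over Ccl7 and for Csf1 over Ccr2. In WT lungs they were separate for Ccl2 over Ccl7 and for Ccr2 over Ccl12. All other neighbours overlapped.

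The 4 ligand genes lie together on chromosome 11 (GRCm38, 82035571 to 82116799), within 81229 bases and on the same strand. Between Ccl7 and Ccl12 sits Ccl11, an eosinophil chemokine gene that is not a CCR2 ligand gene. Ccl11 had 12, 17 and 44 counts in KO and 14, 2 and 27 counts in WT libraries, with overlapping groups and a log2 difference of 0.69 ± 0.86 (edgeR adjusted p = 0.774). Ccl1, beyond Ccl8 on the other strand, had 18, 14 and 17 counts in KO and 1, 5 and 14 in WT libraries. Its groups touched at 14 counts, and it was not called (log2 difference 1.26 ± 0.91, adjusted p = 0.567). Of the 6 chemokine genes of the cluster, the 2 that rose were the neighbours Ccl2 and Ccl7. Whether the differences of the 6 genes differ from each other was not tested. The gene model Gm17268 overlaps Ccl2 on the opposite strand and was listed at 0 in every library.

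**Figure D3:**
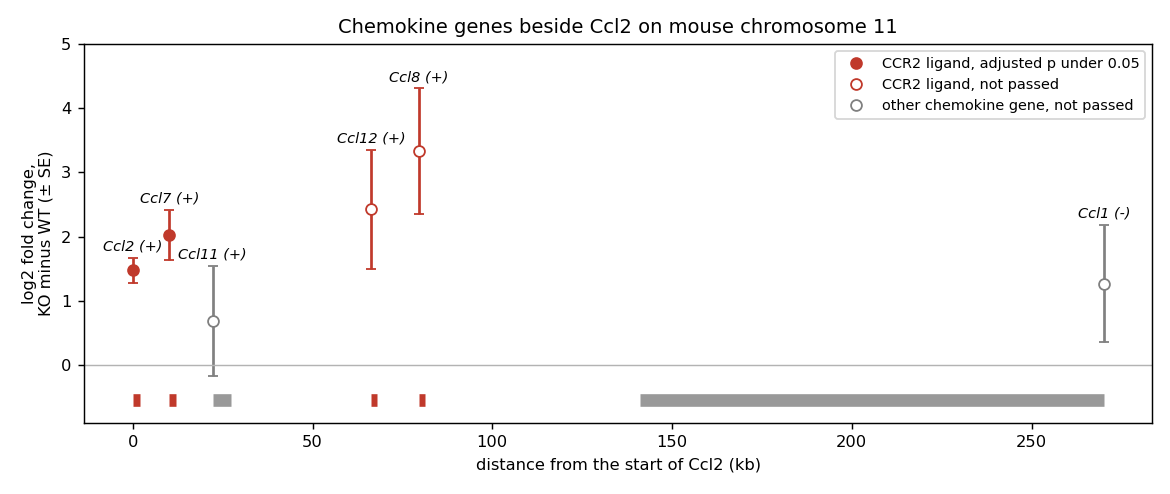
Log2 fold change (KO minus WT) with its SE for the 6 chemokine genes of the cluster, plotted at the start of each gene by its distance from Ccl2 in kb; bars below show the extent of each gene. Filled points (Ccl2 and Ccl7) passed at an adjusted p under 0.05, and (+) and (-) give the strand.

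The promoter table from RefSeq (GRCm38) held 5 of the 7 genes, not Ccl2 and Ccl7, as 250 bases before to 50 bases after the start site. The promoters of Ccl12 and Ccl8 are shown because these adjacent genes share a feature near the start site. Capitals mark TATAAA on the gene's strand, a TATA box, and GAGGAA on either strand, the core bound by the myeloid factor PU.1.

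Ccl12, chr11:82101595-82101894, plus strand: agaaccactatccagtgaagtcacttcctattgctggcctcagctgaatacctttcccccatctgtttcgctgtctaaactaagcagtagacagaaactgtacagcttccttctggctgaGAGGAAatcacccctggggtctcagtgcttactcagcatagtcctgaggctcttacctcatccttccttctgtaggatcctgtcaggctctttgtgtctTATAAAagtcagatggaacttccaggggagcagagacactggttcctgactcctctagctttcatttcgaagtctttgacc

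Ccl8, chr11:82114935-82115234, plus strand: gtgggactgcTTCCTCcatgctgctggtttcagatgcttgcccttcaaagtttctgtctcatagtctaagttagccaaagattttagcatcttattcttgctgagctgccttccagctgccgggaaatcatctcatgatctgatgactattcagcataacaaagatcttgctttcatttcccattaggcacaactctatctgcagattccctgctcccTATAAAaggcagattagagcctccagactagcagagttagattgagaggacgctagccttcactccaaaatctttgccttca

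TATAAA begins at position −31 in Ccl12 and −32 in Ccl8, and 8.32% of the 32851 promoters in the table hold it. GAGGAA, at −130 in Ccl12 and −240 in Ccl8, is found in 28.3% of them. Neither motif was found in the window of Ccr2. An NF-kB site, searched on both strands, matched in Csf1 alone of the 5, at −154, and 1.63% of promoters hold it. An IRF element matched in none of the 5 windows, and 3.44% of promoters hold it. TGANTCA (AP-1) also matched in none, and occurs in 7.81%. GGGCGG (a GC box, 35.7% of promoters) matched in Csf1 and Csf2, and TTGCNNAA (C/EBP, 10.8%) in Csf2. These matches describe the windows only, which were placed by RefSeq start sites. The windows of Ccl8, Ccl12 and Csf1 match the gene starts given above. That of Csf2 (54249850 to 54250149) lies wholly before its gene start at 54249667 on the minus strand. That of Ccr2 (124101933 to 124102232) lies almost wholly after its gene start at 124101950. The windows of Csf2 and Ccr2 thus do not cover all of the 250 bases before those starts.

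Related genes were described by lists of the pathway. Among 13 tested genes of other CC chemokines, none passed in either direction by edgeR (9 positive, median log2 difference 0.49). Ccl9, a chemokine for CCR1, had the smallest p, with 51.2 ± 9.52 CPM in KO and 31.4 ± 7.78 CPM in WT lungs (adjusted p = 0.0886). Ccl5, a T cell and monocyte chemokine, was at 42.6 ± 4.48 CPM in KO and 33.2 ± 7.71 CPM in WT lungs. None of 9 tested genes of other monocyte chemokine receptors, decoy receptors and fractalkine passed (median 0.06). Ackr1 and Ackr2, which bind CC chemokines without signalling through G proteins, were at 0.568 ± 0.212 and 55.8 ± 11.9 CPM in KO lungs, against 1.15 ± 0.133 and 62.0 ± 25.6 CPM in WT lungs.

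On the side of the growth factors, none of 9 tested genes for their receptors and related factors passed (7 positive, median 0.44). Csf1r, the receptor of CSF1, was at 147.6, 177.3 and 191.8 CPM in KO lungs and at 133.6, 136.5 and 126.7 CPM in WT lungs. The groups did not overlap, as in 10.3% of all genes tested with KO above WT, but Csf1r was not called (log2 difference 0.38 ± 0.11, edgeR adjusted p = 0.124). The log2 ratio of Csf1 to Csf1r was −0.87 ± 0.18 in KO and −1.003 ± 0.26 in WT lungs (SD, n = 3 each), with overlapping groups. Csf2rb2, a beta chain of the IL-3 receptor in mice, had the smallest p of the list (log2 difference 0.66 ± 0.17, adjusted p = 0.0817). Il34, the other ligand of CSF1R, was at 7.99 ± 0.359 CPM in KO and 9.44 ± 0.848 CPM in WT lungs.

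Downstream of the receptor, none of 14 signalling genes passed, 7 were positive, and the median log2 difference was 0.00. Rac2, a leukocyte GTPase needed for migration, had the smallest p (0.45 ± 0.14, adjusted p = 0.141). Upstream, none of 14 genes of the NF-kB pathway and early cytokines passed (median 0.14). Il1a, an alarmin cytokine, was at 105.8 ± 8.16 CPM in KO and 57.9 ± 23.7 CPM in WT lungs (log2 difference 0.87 ± 0.23, adjusted p = 0.0984). Tnf was at 78.5 ± 9.05 CPM in KO and 41.7 ± 25.2 CPM in WT lungs, and Il6 at 30.1 ± 7.41 CPM in KO and 19.6 ± 1.303 CPM in WT lungs, with no overlap for either. Over all genes tested, 10.3% had every KO library above every WT library. Rela, an NF-kB subunit gene, was at 182.7 ± 13.5 CPM in KO and 181.7 ± 9.17 CPM in WT lungs. None of 12 genes of monocyte adhesion and transmigration passed (median 0.11), among them Itgb1, with a log2 difference of −0.20 ± 0.10 (adjusted p = 0.401). At an unadjusted p under 0.05, 3 genes differed among the other CC chemokines, 2 among the receptors, 2 among the growth factor genes, 4 in signalling, 4 in the NF-kB list and 0 in adhesion, against 2221 of all 15191 genes. DESeq2 called 1 gene higher in each of these lists but signalling and adhesion, where it called 0. With 1 library left out, edgeR called up to 2 genes higher per list, all of them without KO replicate 1 or without WT replicate 3.

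**Figure D4:**
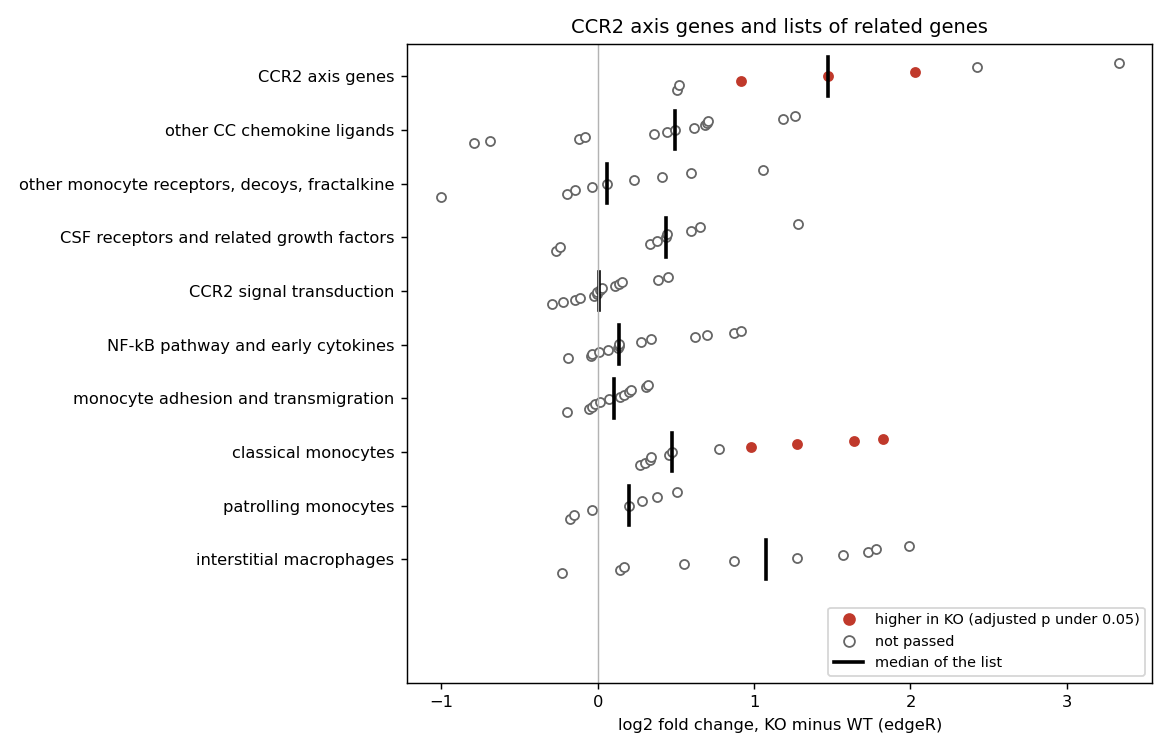
Log2 fold change (KO minus WT, edgeR) of each tested gene in the CCR2 axis and in lists of related genes; filled points rose (adjusted p under 0.05), open points did not pass, and black bars are list medians. Filled points appear in the CCR2 axis (3) and among classical monocyte genes (4).

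The cells that carry CCR2 were followed by their marker genes. Of 11 classical monocyte genes 4 rose, all 11 were positive, and the median log2 fold change was 0.47. Over all genes tested, 1.12% rose and 51.0% were positive. Ly6c2, which encodes the Ly6C antigen of classical monocytes, was at 35.9, 40.1 and 55.2 CPM in KO lungs and at 11.4, 13.2 and 17.6 CPM in WT lungs. The groups were well apart, and the log2 fold change was 1.64 ± 0.20 (edgeR adjusted p = 0.00355). Fcgr1, a high-affinity IgG receptor also carried by macrophages, rose by a log2 fold change of 1.82 ± 0.31, Ms4a4c by 1.27 ± 0.25 and Hp, haptoglobin, by 0.98 ± 0.15 (adjusted p of 0.0158, 0.0284 and 0.00766). With 1 library left out, 1 to 5 of the 11 rose: 5 without KO replicate 1, 3 without WT replicate 3, 2 without KO replicate 3, and 1 without KO replicate 2 or WT replicate 1 or 2. Lyz2 and Cd14, which other myeloid cells also express, did not pass (log2 differences of 0.34 ± 0.12 and 0.30 ± 0.19).

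Levels were also set against these markers. The log2 ratio of Ccr2 to Ly6c2 was 0.30 ± 0.11 in KO and 1.04 ± 0.28 in WT lungs (SD, n = 3 each), with no overlap. The summed ligands, relative to the mean log2 level of the 11 classical monocyte genes, were at −0.84 ± 0.14 in KO and −1.82 ± 0.34 in WT lungs, a difference of 0.98 (0.79 to 1.13 with 1 library left out). The groups did not overlap in that measure either. It depends on the markers used, as the median log2 fold change was 0.47 over the 11 genes and 1.64 for Ly6c2. On average the ligand sum was at 58.3 CPM in KO and 17.7 CPM in WT lungs. Ly6c2 was at 43.7 CPM in KO and 14.1 CPM in WT lungs.

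Markers of other cells were read beside these results, and their part in them was not tested. No list had a marker at 0 in all 6 libraries. None of 7 patrolling monocyte genes passed, and their summed level was 2576 to 3184 CPM in KO and 2982 to 3028 CPM in WT lungs. Of 10 interstitial macrophage genes none passed (9 positive, median 1.07), with sums of 653.6 to 786.5 CPM in KO and 483.4 to 682.9 CPM in WT lungs. C1qb, a complement gene of these macrophages, was at 27.2, 49.3 and 73.5 CPM in KO lungs and at 19.5, 7.28 and 11.03 CPM in WT lungs (log2 difference 1.99 ± 0.47, adjusted p = 0.115). Of 7 tested neutrophil genes S100a8 and S100a9 rose, against 1.12% of all genes tested. In that list only 4 of the 7 were positive, against 51.0% of all genes tested. Its median log2 difference was 0.52, and 0.10 to 0.93 with 1 library left out. The sum over the 9 listed was 224.6 to 384.3 CPM in KO and 142.0 to 192.4 CPM in WT lungs. S100a8 rose by a log2 fold change of 1.13 ± 0.19 (adjusted p = 0.0144), while the neutrophil antigen gene Ly6g had 4, 14 and 26 counts in KO and 0 in all WT libraries. Both neutrophil calls were kept without KO replicate 1 or WT replicate 3, and lost without any of the other 4 libraries. None of 7 T cell, 5 B cell or 8 alveolar macrophage genes passed, with medians of 0.51, 0.59 and 0.29. At an unadjusted p under 0.05, 3 T cell, 3 B cell, 1 alveolar macrophage, 5 interstitial macrophage and 1 patrolling monocyte genes differed, and DESeq2 called 2, 1, 1, 1 and 0 of them higher. The sums were 133.4 to 186.8 CPM in KO and 93.7 to 144.4 CPM in WT lungs for T cells, 123.8 to 196.5 and 80.7 to 140.2 CPM in the same order for B cells, and 411.4 to 492.4 and 287.4 to 442.1 CPM for alveolar macrophages.

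Structural cells, which can also make these ligands, were followed in the same way. Sums of endothelial markers were 4577 to 5774 CPM in KO and 4800 to 6096 CPM in WT lungs, and those of fibroblasts 2407 to 3355 CPM in KO and 3176 to 3638 CPM in WT lungs. Of 6 fibroblast genes Pdgfra fell by 0.46 ± 0.11 on the log2 scale (edgeR adjusted p = 0.0485), a call kept without KO replicate 1 and lost without any of the other 5 libraries. None of 6 endothelial genes passed (1 at an unadjusted p under 0.05, and 0 by DESeq2). Without KO replicate 1, Tek, an endothelial receptor gene, fell (log2 fold change −0.47, adjusted p = 0.0209). None of the 6 alveolar epithelial genes passed, and none of 6 keratin and epithelial genes, which tumour cells and airway share, at 787.6 to 853.8 CPM in KO and 702.7 to 886.6 CPM in WT lungs. Of 5 platelet genes Ppbp, which encodes a platelet chemokine, fell (log2 fold change −2.79 ± 0.29, edgeR adjusted p = 0.00157), DESeq2 called 4 of the 5 lower, and their sum was 12.5 to 24.3 CPM in KO and 44.6 to 67.8 CPM in WT lungs. Of the alveolar epithelial, keratin and erythroid genes, 0 differed at an unadjusted p under 0.05 and 0 by DESeq2. None of 5 erythroid genes passed, at 156.1 to 332.3 CPM in KO and 162.0 to 192.1 CPM in WT lungs.

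The genes whose log2 levels followed Ccl2 most closely over the 6 libraries were Xaf1, Tra2b, Tbrg4, Bst2 and Pcbp1, with Pearson correlations of 0.991 to 0.998. Bst2, an interferon-induced membrane protein gene, was at 150.2 CPM in KO and 61.5 CPM in WT lungs on average, and Xaf1, another interferon-induced gene, at 36.8 CPM in KO and 17.9 CPM in WT lungs. Tra2b, Tbrg4 and Pcbp1 were not called, with small log2 differences of 0.27, 0.28 and 0.32. For Ccr2 they were Psme2, Ndufa13, Psmb8, Dtx3l and Fau, at 0.993 to 0.997. Psme2 and Psmb8 encode parts of the proteasome that makes peptides for MHC class I. Ndufa13, Psmb8, Dtx3l and Fau were not called, with log2 differences of 0.51, 1.43, 0.80 and 0.33. All these correlations describe 6 libraries in 2 groups, and 3.62% of the 12673 genes searched had a correlation above 0.9 with Ccl2 and 4.34% with Ccr2. Within the axis, Ccl2 correlated at 0.944 with Ccr2, 0.938 with Csf1, 0.903 with Ccl7, 0.882 with Ccl8, 0.859 with Ccl12 and 0.739 with Csf2. Ccr2 correlated most with Ccl12 among the other 6, at 0.971.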

How the data were processed

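Whole-lung RNA was sequenced as paired-end reads in 6 libraries. Per the series' design text and the submitters' processing notes, the authors aligned reads to mm10 (GRCm38) with STAR 2.5 and counted them with HTSeq 0.6.1, and deposited whole-number counts per Ensembl gene. Gene models came from Ensembl; the sources used here give no release, strand setting or counting mode, so reads of overlapping genes on opposite strands cannot be told apart. Symbols, coordinates and summed exon lengths came from GENCODE M21, which matched 34490 of 35275 identifiers. Flt3l, in a list of related genes, was not analysed here.

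All genes were fitted with edgeR 4.0.16 in R 4.3.3 (TMM factors, filterByExpr at 10 counts, robust glmQLFit on group alone, two-sided quasi-likelihood F-test), with Benjamini-Hochberg adjustment over 15191 genes and a threshold of 0.05. SE is the absolute log2 fold change over the root of F. CPM use TMM-scaled totals; correlations use log2(CPM + 1). The procedure was tested on simulated counts, in which only genes above a set mean level were changed. That test did not cover genes as low as Csf2 and Ccl8. Coding sequences were aligned with Biopython 1.88. Named genes were the 7 members, the called genes of each pathway and classical monocyte list (at most 4, otherwise the smallest p), 1 gene of each other list, and 5 genes most like Ccl2 and Ccr2; others were chosen after their values were seen. 1 gene that the rule names is not reported here. Members and lists were chosen with earlier results of these data known. Alternatives used DESeq2 1.42.0, limma 3.58.1 (voom) and other settings. Counts of any 2 libraries differed by at least 15.3 times the sampling variance, so none was treated as a repeat deposit; this does not show that they came from separate mice. Floors cover counting error only.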

Additional observations from a re-analysis of the deposited data

How the results depend on the processing

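Ccl2 rose under all 14 alternatives, and none of the 7 CCR2 axis genes changed direction under them. Of the 7 CCR2 axis genes 3 rose with all libraries, 6 with no filter on low counts, 1 at a threshold of 0.01, and 1 to 3 with 1 library left out. Genes higher and lower in KO lungs numbered 170 and 51. They numbered 578 and 225 with no filter on low counts, 367 and 231 by DESeq2, 23 and 2 at a threshold of 0.01, and 315 and 160 at 0.1. With 1 library left out they numbered 22 to 404 and 2 to 174. Deviations of same-numbered libraries correlated at 0.05, 0.02 and 0.03, and those of other KO and WT pairs at −0.086 to 0.057. With 3 libraries per group these values cannot decide whether replicate numbers pair the samples, and no label says so. With the replicate number as a block, 309 genes were higher and 96 lower, and 4 of the 7 passed, Csf1 being added (adjusted p = 0.0298). By limma-voom Ccr2 missed the threshold (adjusted p = 0.0527). The cause of these shifts was not tested. The median log2 difference of all genes was 0.01 with TMM and 0.02 with no scaling factor. Depth limits Csf2, Ccl8 and Ccl12, which had at most 112 counts in a library.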
